A study of Mus musculus with 2 samples.

Results

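Glutathione S-transferase messenger RNAs were examined in cultured osteoblasts, cells that form bone, taken from the calvariae (skull caps) of C57BL/6 mice aged 5 days. The 10 genes described, Gsta4, Gstm1, Gstm2, Gstm5, Gstt1, Gstk1, Gsto1, Gstz1, Mgst1 and Mgst3, encode cytosolic, mitochondrial and microsomal transferases and had been chosen by family name and by their signals on these same arrays, with the ratios of the arrays in view. Every probe set whose annotation named only 1 of these genes was used, which gave 16 probe sets for 10 of the 18193 genes on the array. The cells of 1 sample were kept for 6 h in serum-free medium with 4 mM phosphate, and those of the other in the unmodified medium with 1 mM phosphate, both at pH 7.2 and both after a night without serum. The extra phosphate came from a sodium phosphate stock of 0.5 M, so sodium was added with it. No transgene, deletion or other agent was named for either group. Each condition was a single array, so the values carry no error between replicates and the conditions are compared by size alone, without p-values.

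Glutathione transferases join the tripeptide glutathione to reactive, mostly fat-soluble compounds, among them products of lipid peroxidation, which makes them easier to export. The cytosolic enzymes fall into classes named by Greek letters (alpha, mu, pi, theta, omega, zeta), a separate kappa class is found in mitochondria and peroxisomes, and the microsomal enzymes are unrelated membrane proteins. Several of the genes are known targets of the transcription factor NRF2, which binds antioxidant response elements together with a small Maf protein.

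Signals are MAS5 values on a linear scale, and signals of different probe sets are not comparable as levels. A signal floor of 21.5, the pooled median of both arrays, was passed by 51.0% of probe sets on the phosphate array and 49.0% on the control array. As a mark of RNA quality, the 3′ probe sets had 1.43 times the 5′ signal on the phosphate array and 1.36 times on the control array for actin, and 0.769 and 0.748 times for Gapdh on these arrays. Of the osteoblast markers, 10 of 14 had a probe set naming only that gene and all 10 passed the floor on each array. Log2 ratios of probe sets of 1 gene varied around their mean with a standard deviation of 0.42 for dimmer signals under 100, 0.26 between 100 and 400 and 0.16 above 400. This technical spread is the error given below, and it holds nothing of the variation between cultures.

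Of the 10 transferase genes, 9 had a lower signal in 4 mM phosphate and 1, Gsto1, had a higher one. Across all 12241 genes measured on at least 1 array, 55.9% had a log2 ratio below 0 and 44.1% had one above 0. Gsta4, Gstz1 and Gstk1 were at least 1.5-fold lower, where 12.1% of all measured genes were, and Gsta4 alone was at least 2-fold lower, against 2.92% of all measured genes. None of the 10 was 1.5-fold higher, the background being 7.25% at 1.5-fold and 2.28% at 2-fold. The median log2 ratio of the 10 genes was −0.53, against −0.06 for all measured genes. Since the genes were chosen with these same ratios known, the counts and the median only describe them. The gene values all came from signals that passed the floor on each array, as did 14 of their 16 probe sets, the other 2 being below it on both.

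**Figure D1:**
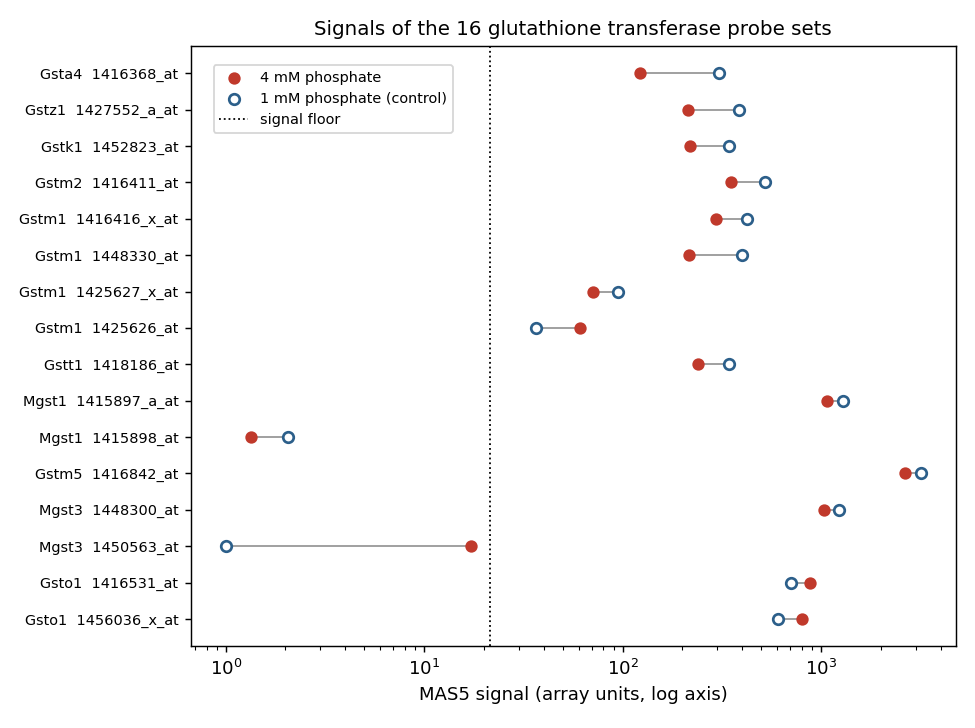
MAS5 signals (log axis) of all 16 probe sets naming only 1 of the 10 transferase genes, with the 4 mM phosphate array filled and the 1 mM phosphate array open, and genes ordered from the lowest ratio at the top. The filled point lies left of the open one for Gsta4 at 122 against 307, and right of it for both probe sets of Gsto1, while 1 probe set each of Mgst1 and Mgst3 lies below the dotted signal floor on both arrays.

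Gsta4 encodes the alpha-class enzyme that conjugates 4-hydroxynonenal, a toxic aldehyde formed when membrane lipids are oxidised. Its only probe set, 1416368_at, had a signal of 122 in 4 mM phosphate and 307 in 1 mM phosphate. The phosphate signal was thus 39.8% of the control signal, a log2 ratio of −1.33 with a technical standard deviation of 0.26. Only 0.743% of all measured genes had a lower ratio, which put Gsta4 at place 92 of 12241 counted from the lowest. No second probe set was available to compare with it.

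Gstz1 and Gstk1 came next. Gstz1 encodes the zeta-class enzyme that is also maleylacetoacetate isomerase, the last but one step in the breakdown of tyrosine. It had signals of 214 in 4 mM phosphate and 385 in 1 mM phosphate (log2 ratio −0.85, technical SD 0.26). The gene for the last step of that pathway, Fah, had signals of 161 and 261 on the phosphate and control arrays (log2 ratio −0.69), while Tat, Hpd and Hgd, which act earlier, were at the floor on both arrays. Gstk1, the kappa-class enzyme, had signals of 217 in 4 mM phosphate and 343 in 1 mM phosphate. Its log2 ratio was −0.66 with a technical SD of 0.26, just past the 1.5-fold limit.

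The mu-class genes Gstm1, Gstm2 and Gstm5 encode close relatives that act on many electrophiles. Gstm2 had signals of 350 in 4 mM phosphate and 519 in 1 mM phosphate, a log2 ratio of −0.57 (technical SD 0.26) that fell just short of 1.5-fold. Gstm5 had a signal of 2647 in 4 mM phosphate and 3176 in 1 mM phosphate, with a log2 ratio of −0.26 (technical SD 0.16). Gstm1 was read by 4 probe sets, which did not all point the same way. Its brightest, 1416416_x_at, gave 295 in 4 mM phosphate and 425 in 1 mM phosphate (log2 ratio −0.53), and 1448330_at gave 217 and 400 on the same arrays (log2 ratio −0.88). The dimmer 1425627_x_at had a log2 ratio of −0.43, from 70.5 in 4 mM phosphate and 95.0 in 1 mM phosphate. The dimmest, 1425626_at, was higher in 4 mM phosphate, with 60.7 against 36.4 and a log2 ratio of 0.74. The technical SD was 0.26 for the 2 brighter and 0.42 for the 2 dimmer probe sets. In the manufacturer's naming an x marks probe sets with probes shared with, or very similar to, other transcripts, so signal from another mu-class gene in these values cannot be told apart from Gstm1.

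Gstt1, of the theta class, which acts on small halogenated compounds, had signals of 239 in 4 mM phosphate and 344 in 1 mM phosphate. The log2 ratio was −0.52 with a technical SD of 0.26. Of the 6 genes with ratios from −1.33 to −0.52, 3 passed the 1.5-fold limit, and the other 3, Gstm2, Gstm1 and Gstt1, lay between −0.57 and −0.52.

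The microsomal genes differed less. Mgst1, an enzyme of the endoplasmic reticulum and outer mitochondrial membrane that also reduces lipid hydroperoxides, had signals of 1069 in 4 mM phosphate and 1293 in 1 mM phosphate (log2 ratio −0.27). Mgst3, which can also make leukotriene C4, had 1029 in 4 mM phosphate and 1233 in 1 mM phosphate (log2 ratio −0.26). Both had a technical SD of 0.16, and 29.5% and 30.5% of all measured genes had lower ratios than Mgst1 and Mgst3. The second probe sets, 1415898_at of Mgst1 with 1.34 and 2.05 and 1450563_at of Mgst3 with 17.1 and 1.00 on the phosphate and control arrays, lay below the floor and gave no ratio.

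Gsto1 was the exception in direction. It encodes the omega-class enzyme, whose main activities are the removal of glutathione from protein thiols and the reduction of dehydroascorbate rather than conjugation. Probe set 1416531_at had signals of 883 in 4 mM phosphate and 708 in 1 mM phosphate (log2 ratio 0.32), and 1456036_x_at had 804 and 609 on the same arrays (log2 ratio 0.40). The probe sets thus pointed the same way at 1.25-fold and 1.32-fold, each with a technical SD of 0.16. The direction depended on the scaling, since setting the arrays equal on the poly-A spikes gave Gsto1 a log2 ratio of −0.15. All 24 probe sets for these spikes, which are bacterial RNAs added ahead of labelling, had more signal in 4 mM phosphate, their median log2 ratio being 0.46. All 18 probe sets for the separate spikes that control hybridisation also had more signal there, with a median of 0.23. Scaling on the poly-A spikes moved the median of all measured genes to −0.51 and that of the transferases to −0.99. It divides every phosphate signal by 1 constant, so the distance between these medians was all but fixed in advance. Other log2 ratios between 0 and 0.46 given here would likewise turn negative under this scaling where both signals are well above the floor.

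**Figure D2:**
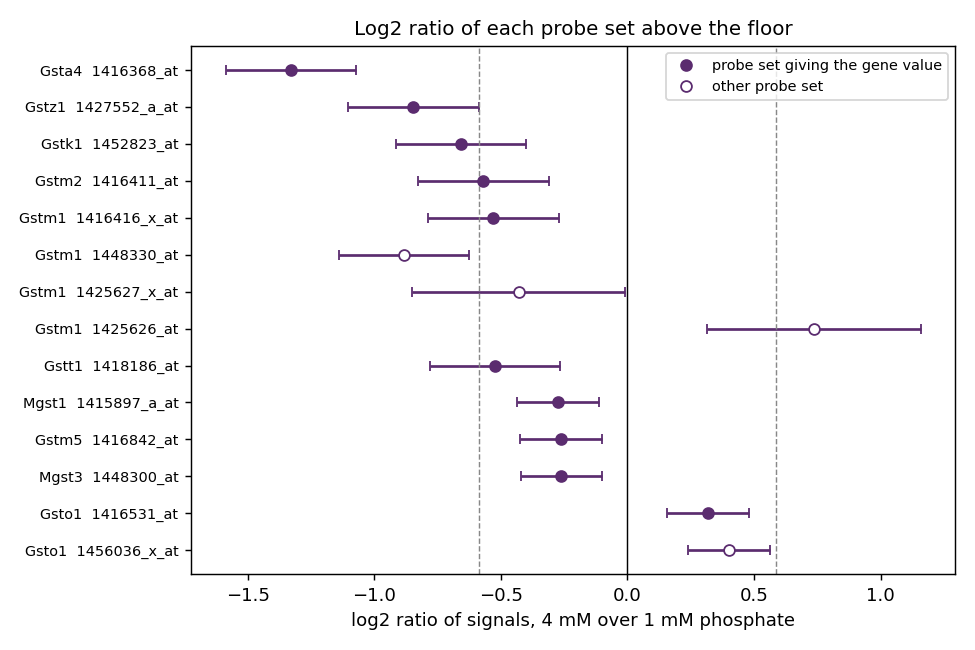
Log2 ratios (4 mM over 1 mM phosphate) of the 14 probe sets above the floor, with bars of 1 technical SD from probe sets of the same gene at like signal, and dashed lines at 1.5-fold in each direction. Filled points give the gene value, and the points right of 0 are both probe sets of Gsto1 and the dimmest of Gstm1, at 0.74.

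**Figure D3:**
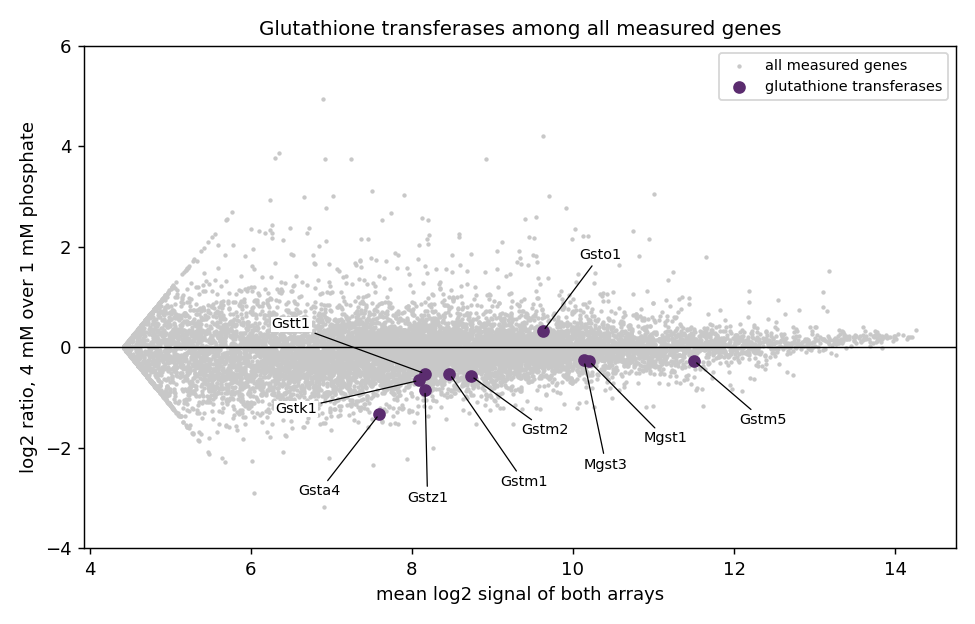
Log2 ratio (4 mM over 1 mM phosphate) against mean log2 signal of both arrays for 12241 measured genes in grey and the 10 transferase genes in purple. The transferases lie inside the grey cloud, with Gsta4 at its lower edge and Gsto1 the only one above 0.

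The rest of the family and its relatives were set beside these genes from a list of 23. Of these 23, 19 had a probe set naming only that gene, and 11 were measured, 9 with a ratio below 0 and 2 above. Gstt3 and Gstt2, theta-class genes, had log2 ratios of −1.50 and −1.16, the lowest of the list. Gstt3 had 70.9 in 4 mM phosphate and 201 in 1 mM phosphate, and Gstt2 had 40.6 and 90.7 on the same arrays. Gstm4, of the mu class, had 53.4 in 4 mM phosphate and 117 in 1 mM phosphate (log2 ratio −1.13). These 3 genes were 2-fold lower, but each on a single dim probe set with a technical SD of 0.42. Gstt3 had a lower ratio than all 10 genes described above, and Gstt2 and Gstm4 a lower one than all of them but Gsta4. Hpgds, the sigma-class enzyme that makes prostaglandin D2, was also dim, with 28.2 in 4 mM phosphate and 52.6 in 1 mM phosphate (log2 ratio −0.90).

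Gstp1, the pi-class gene, had the brightest probe set of the family, with 5440 in 4 mM phosphate and 5891 in 1 mM phosphate, and a log2 ratio of −0.11. Gstm3 and Mgst2 were close to the floor, at log2 ratios of −0.17 and −0.34. Gstcd, a gene named for a domain it shares with the family, had a log2 ratio of −0.64. Alox5ap, a membrane protein related to the microsomal transferases, was at −0.35. The genes with ratios above 0 were Ptges, the related prostaglandin E synthase, at 0.46, with 0.12 and −0.48 on its other probe sets, and Gdap1, a distant relative that was below the floor in 1 mM phosphate and is therefore at least 1.16-fold higher. Gsta2, Gsta3, Gstm6, Gstm7, Gstp3, Gstt4, Gsto2 and Ltc4s were at the floor on both arrays, although a dimmer probe set of Gstm7 reached 23.2 in 4 mM phosphate. Over the 21 measured genes of the described set and this list, 18 had ratios below 0, 8 were at least 1.5-fold lower and none was 1.5-fold higher, where the shares of all measured genes were 55.9%, 12.1% and 7.25%.

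The mu and theta genes lie in clusters, on chromosomes 3 and 10 in the RefSeq gene table, and the order of genes there was used to set them beside their neighbours. All 5 measured mu-class genes of the chromosome 3 cluster had ratios below 0, from −1.13 to −0.17. Of the 5 measured neighbours, 2 had ratios below 0 and 3 above, with Ampd2, next to Gstm4, at 0.32 and Csf1, 2 genes before Gstm5, at 0.62. All 3 measured theta-class genes of the chromosome 10 cluster had ratios from −1.50 to −0.52. Of the 5 measured neighbours there, 3 had ratios below 0 and 2 above, with a median of −0.32, which was the value of Smarcb1. The neighbours Ddt and Mif, tautomerase genes that flank the theta genes, had log2 ratios of −0.41 and 0.15, and Mif had signals of 8890 in 4 mM phosphate and 8023 in 1 mM phosphate. Derl3 and Gnat2, the neighbours with the lowest ratios in the stretches shown, were below the floor in 4 mM phosphate, so their ratios of −0.99 and −0.88 are bounds.

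**Figure D4:**
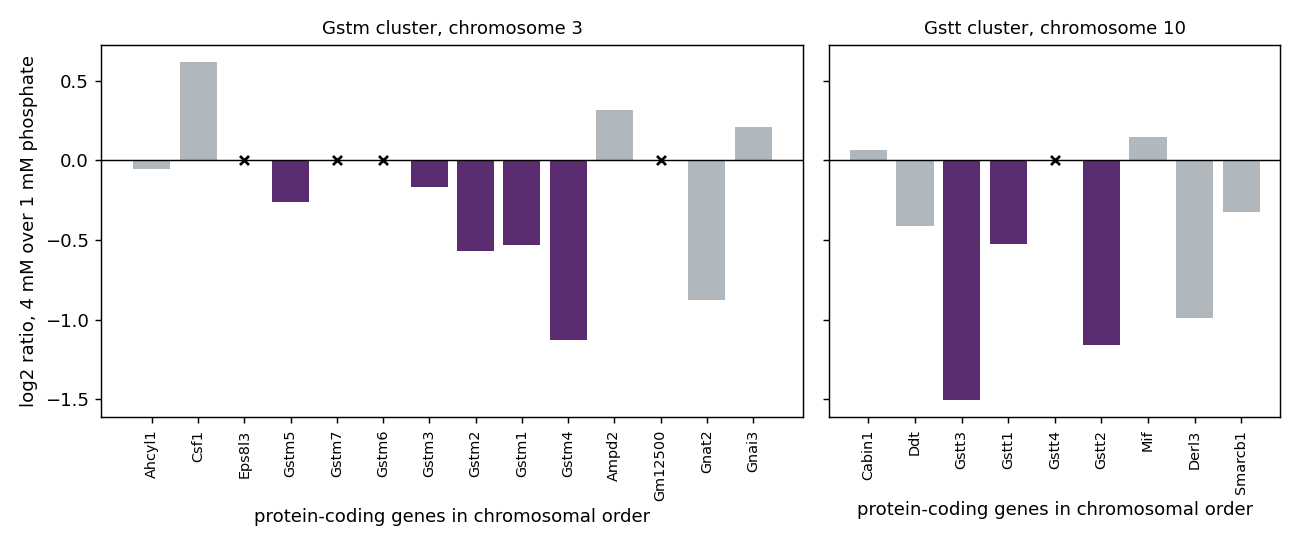
Log2 ratio (4 mM over 1 mM phosphate) of protein-coding genes in chromosomal order around the mu-class cluster on chromosome 3 and the theta-class cluster on chromosome 10, with transferase genes in purple, other genes in grey and a cross for genes without a value. All 8 measured transferase genes lie below 0, from −1.50 to −0.17, and the other genes lie on both sides.

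Genes that supply and recycle glutathione did not share this direction. All 6 measured of 7 genes of glutathione synthesis had ratios above 0, with a median of 0.19. Of all measured genes, 44.1% had ratios above 0 and 55.9% below. Gclc, the catalytic subunit of the rate-limiting glutamate-cysteine ligase, had 281 in 4 mM phosphate and 163 in 1 mM phosphate (log2 ratio 0.79), and 0.49 on its second probe set. Gclm, the modifier subunit, had 840 in 4 mM phosphate and 644 in 1 mM phosphate (log2 ratio 0.38). Gss, the synthase of the second step, was at 0.15, and Cbs, of the transsulfuration pathway, was near the floor with a bound of 0.09. Of 13 measured genes of glutathione reduction and the peroxidases, 8 had ratios above 0 and 5 below, with a median of 0.15. Gsr, the reductase that regenerates glutathione, had 501 in 4 mM phosphate and 264 in 1 mM phosphate (log2 ratio 0.93, and 0.73 on its other probe set). Glrx, the glutaredoxin that takes glutathione off proteins, had a log2 ratio of 0.69, and 0.49 on its other probe set. At the other end, Idh1, a cytosolic source of NADPH, had 2243 in 4 mM phosphate and 3917 in 1 mM phosphate (log2 ratio −0.80), and Glrx2 was at −0.19. Setting the arrays equal on the poly-A spikes turned the medians of the synthesis and reduction lists to −0.25 and −0.31. The all-gene median was −0.51 under that scaling, which lowers all values well above the floor by the same amount.

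Genes that export conjugates or break glutathione down had a median log2 ratio of −0.14, with 12 of 16 measured below 0. The share below 0 was 55.9% over all measured genes. Oplah, 5-oxoprolinase, and Abcc10, an ABC transporter, were lowest at −0.97 and −0.87, both from dim signals, Oplah having 28.5 in 4 mM phosphate and 56.0 in 1 mM phosphate. Ggt5, a gamma-glutamyltransferase, and Abcc1, an exporter of glutathione conjugates, were highest at 0.64 and 0.46. Ggt5 was dim as well, with 63.1 in 4 mM phosphate and 40.6 in 1 mM phosphate. Abcc1 had 0.24 on its second, dimmer probe set. The list of glyoxalase and formaldehyde genes had ratios below 0 in 5 of 5 measured cases, from −0.63 for Lactb2, a metallo-beta-lactamase-fold protein, to −0.28 for Glo1, glyoxalase 1. Hagh, glyoxalase 2, was at −0.42, with −0.55 and −0.11 on its other probe sets, and Adh5, formaldehyde dehydrogenase, at −0.38. Of the export list 2 genes and of the glyoxalase list 1 gene were at least 1.5-fold lower, and none was 2-fold lower. The export list's 2 of 16 is close to the 12.1% of all measured genes that were 1.5-fold lower. All lists were drawn up with results of these arrays known, so their counts and medians are descriptions.

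**Figure D5:**
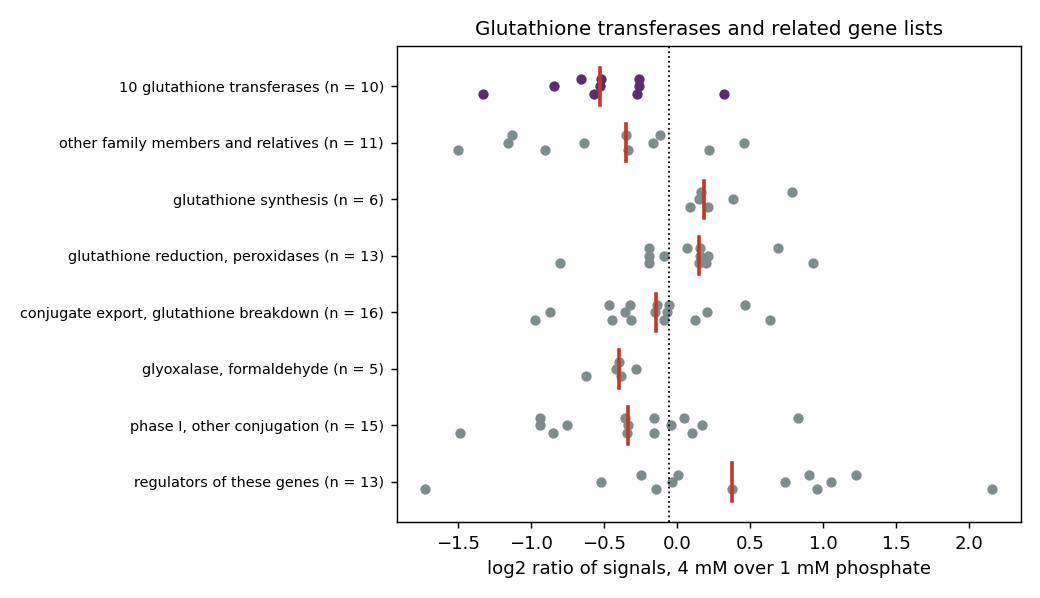
Log2 ratio (4 mM over 1 mM phosphate) of each measured gene in 8 lists, with a red bar at each list's median and a dotted line at the median of all measured genes, −0.06. The transferases have a median of −0.53, the glutathione synthesis genes lie above 0 with a median of 0.19, and the regulators spread from −1.73 to 2.16.

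Transcription factors that act on transferase genes, listed together with Keap1, differed among themselves. Of 17 genes listed, 13 were measured, with 8 ratios above 0, of which 6 reached 1.5-fold and 3 reached 2-fold. Of all measured genes, 44.1% had ratios above 0, 7.25% were 1.5-fold higher and 2.28% were 2-fold higher. Nfe2l2, which encodes NRF2, had 1972 in 4 mM phosphate and 948 in 1 mM phosphate (log2 ratio 1.06). Its small Maf partners were higher too, with Maff at 349 in 4 mM phosphate and 78.2 in 1 mM phosphate (log2 ratio 2.16), Mafg at 0.96 and Mafk at 0.90. The repressors of the same elements, Bach1 and Bach2, had log2 ratios of 0.74 and 1.22, Bach1 with 0.74 on its second probe set as well and Bach2 with 0.04 on its second. Keap1, which targets NRF2 protein for degradation, was at −0.04, with −0.48 on a dimmer probe set, and the related factor gene Nfe2l1 was at 0.01. The aryl hydrocarbon receptor Ahr was at 0.38 and its partner Arnt at −0.14, with values from 0.03 to 0.83 on the other probe sets of Arnt. Pparg, a nuclear receptor of fat cells, had the lowest ratio at −1.73. The Pparg signal was 23.0 in 4 mM phosphate, close to the floor, and 76.0 in 1 mM phosphate. Rxra, its partner, was at −0.52 with 0.11 on a dimmer probe set, and the glucocorticoid receptor gene Nr3c1 was at −0.25. The median of the list was 0.38, and −0.088 with the poly-A spikes set equal.

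Promoter sequences (250 bases before to 50 after a transcription start) were taken from RefSeq on GRCm38.p6. Of the 10 genes, Gsta4, which had the lowest ratio, matched none, and the other 9 matched 12 promoters. They were searched on both strands for the antioxidant response element core TGACNNNGC, the AP-1 site TGACTCA, which shares its first 4 letters with that core, the TATA box TATAAA and the GC box GGGCGG. The antioxidant core was present in 2 of the 12, those of Gstm5 and of Mgst1, against 12.4% of all 32851 promoters. The AP-1 site was in 1 of the 12, that of Gstm5, against 5.20% of all. The letters TATAAA were in 2 of the 12, against 13.6% of all. They began 30 bases before the start in Gstm1, but past the start, at base 41, in Gstm5. The GC box was in 7 of the 12, against 35.7% of all. Matches to different motifs overlapped in 0 cases in these 12 promoters. A match is a description of the letters, and a missing one says only that they are not in this window. The promoters of Gstm5 and Mgst1 are shown because they hold the core, that of Gstm1 because this gene has the most probe sets, and that of Gsto1 because its ratio was above 0. Capitals mark the antioxidant core, the AP-1 site and the letters TATAAA, and each sequence reads 5′ to 3′ on the strand of the gene.
Gstm5 (chr3:107895604-107895903, plus strand): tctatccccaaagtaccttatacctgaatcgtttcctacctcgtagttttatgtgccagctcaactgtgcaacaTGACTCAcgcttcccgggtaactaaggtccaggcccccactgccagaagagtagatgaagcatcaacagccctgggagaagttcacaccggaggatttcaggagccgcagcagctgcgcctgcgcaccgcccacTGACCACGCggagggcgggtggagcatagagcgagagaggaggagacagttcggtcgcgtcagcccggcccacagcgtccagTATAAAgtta
Mgst1 (chr6:138140277-138140576, plus strand): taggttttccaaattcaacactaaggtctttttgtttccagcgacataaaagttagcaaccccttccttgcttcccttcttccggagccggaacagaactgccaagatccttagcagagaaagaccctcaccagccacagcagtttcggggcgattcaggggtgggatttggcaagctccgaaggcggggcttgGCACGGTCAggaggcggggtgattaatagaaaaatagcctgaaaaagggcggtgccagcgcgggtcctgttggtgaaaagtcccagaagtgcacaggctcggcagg
Gstm1 (chr3:108017769-108018068, minus strand): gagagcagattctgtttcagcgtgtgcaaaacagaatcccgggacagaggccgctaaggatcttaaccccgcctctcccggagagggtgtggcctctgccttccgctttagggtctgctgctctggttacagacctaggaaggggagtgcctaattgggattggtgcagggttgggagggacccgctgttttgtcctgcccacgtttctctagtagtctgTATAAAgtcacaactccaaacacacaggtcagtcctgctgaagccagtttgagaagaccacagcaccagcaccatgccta
Gsto1 (chr19:47854723-47855022, plus strand): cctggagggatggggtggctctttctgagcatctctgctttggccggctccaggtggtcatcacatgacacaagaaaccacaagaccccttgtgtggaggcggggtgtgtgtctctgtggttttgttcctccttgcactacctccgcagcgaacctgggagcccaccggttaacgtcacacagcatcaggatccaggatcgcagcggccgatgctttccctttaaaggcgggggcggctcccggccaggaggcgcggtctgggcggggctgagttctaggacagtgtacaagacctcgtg

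In the Gstm5 promoter the antioxidant core began 42 bases before the start and the AP-1 site 176 bases before it, and in the Mgst1 promoter the core lay on the opposite strand with its first shown base 56 bases before the start. Gstm5 and Mgst1, with the core, had log2 ratios of −0.26 and −0.27. The other matched genes without it ranged from −0.85 for Gstz1 to 0.32 for Gsto1. The second promoter listed for Mgst1 held no antioxidant core, nor did either promoter of Gstm1 or of Gstz1.

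Among the marker lists of other cell types, the adipocyte list and the macrophage and osteoclast list had the lowest medians. Of all measured genes, 55.9% had ratios below 0, and their median was −0.06. The macrophage and osteoclast markers had ratios below 0 for 13 of 15 measured genes of 16, with a median of −0.36. Their summed signal was 19296 in 4 mM phosphate and 21015 in 1 mM phosphate. The brightest, Lyz2 and Ctsk, weigh most in that sum and had log2 ratios of −0.03 and 0.10, so it says little about the dimmer markers. Itgam was at the floor on both arrays, Aif1 and Mrc1 were lowest at −0.80 and −0.79, and Cd14 was highest at 1.21. The adipocyte markers had ratios below 0 for 6 of 6 measured genes of 10, with a median of −0.48 and a summed signal of 7288 in 4 mM phosphate and 10133 in 1 mM phosphate. Most of the difference in that sum was Car3, with 5645 in 4 mM phosphate and 8228 in 1 mM phosphate. Car3 was at −0.54, with −1.09 and, as a bound, −0.68 on its other probe sets. Adipoq was at −0.51, and Fabp4 at −0.08 with −0.39 on its dimmer probe set. Pparg was lowest at −1.73, with a phosphate signal of 23.0, close to the floor, and a technical SD of 0.42. Lep and Cidec were at the floor on both arrays. The part of these cells in the transferase ratios was not tested, and fewer cells of a type and less RNA per cell cannot be told apart in such cultures. Chondrocyte markers had ratios from −0.14 to 0.25 over 10 measured genes. Osteoblast markers had a median of −0.02 over 10, and ranged from −0.39 for Sp7 to 1.51 for Dmp1. The other probe sets of Dmp1 gave 1.68 and 2.38. Markers of mesenchymal progenitors and pericytes had a median of −0.15 over 11, and skeletal muscle markers −0.03 over 6 of 10. All 8 endothelial markers were at the floor on both arrays.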

How the data were processed

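The authors deposited linear intensity values for each probe set, from GCOS 1.4 with MAS5, per the submitters' processing notes. The method corrects for background and mismatch signal and scales each array by 1 factor, which hides a change of total RNA per cell. Affymetrix arrays were hybridised with biotin-labelled cRNA from 100 ng total RNA, per the labels' protocols. Probe-level files were not used here, and precision is limited by having 2 arrays.

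Of 45101 probe sets, 64 manufacturer's controls were kept apart. The annotation named 1 gene for 34945 and several for 932, and 34741 were matched to RefSeq by Entrez identifier. Signals under the floor (21.5, the 50th percentile) were set to the floor before the log2 ratio of phosphate over control was taken. Each gene took its brightest probe set, and 12241 genes had 1 or both arrays above the floor. Genes were counted at 1.5-fold and 2-fold. All 10 genes and, from 15 other lists, the 2 highest and 2 lowest genes, or every measured gene of the family, regulator and tyrosine lists, could be named. Nqo1, Adipoq, the third and further members named from other lists and the chromosomal neighbours were chosen after their values were seen. Members and lists were chosen with earlier results of these data known. The ratio calculation was tested on simulated data. Python 3.11.15, pandas 2.3.3 and statsmodels 0.14.6 were used. 11 alternative settings were tried.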

Additional observations from a re-analysis of the deposited data

How the results depend on the processing

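With 1 array per condition no replicate could be left out. No paired analysis was possible because each group holds 1 array. Under 10 of 11 alternatives (4 other floors, a pseudocount, quantile and loess scaling, 2 other ways to choose the probe set, and genes above the floor on both arrays only), 9 of 10 transferase genes stayed below 0, with 3 at least 1.5-fold and 1 at least 2-fold lower and 0 at least 1.5-fold higher. Their median lay between −0.53 and −0.47. The 4 other floors and the setting with both arrays above the floor could not change these values, since no signal used was under 122. The choice of probe set could change only Gstm1 and Gsto1, which had more than 1 probe set above the floor. With the poly-A spikes set equal, the median became −0.99, 9 genes were 1.5-fold and 4 were 2-fold lower, and Gsto1 turned to −0.15. Under that setting 41.6% of all measured genes were 1.5-fold and 13.4% 2-fold lower, against 12.1% and 2.92% as deposited. The medians of glutathione synthesis, glutathione reduction and peroxidases, and regulators turned to −0.25, −0.31 and −0.088. Under the other 10 alternatives, from 6.87% (pseudocount) to 18.7% (no floor) of all genes counted were at least 1.5-fold lower. The share at least 2-fold lower ran from 0.94% (pseudocount) to 10.1% (no floor). Without a floor, the 1 of 10 transferase genes that was 2-fold lower is close to that share. A floor at the 65th percentile gave the regulators a median of 0.10 and the adipocyte markers one of −0.17, and the probe set nearest 0 gave the regulators 0.11. The counts below 0 and the medians of other lists were added after seeing the data. Dim probe sets, such as those of Gstm4, Gstt2, Gstt3 and the 1 of Gstm1 above 0, are least precise.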

Other observations

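Enzymes that act before or beside the transferases in detoxification had ratios below 0 for 11 of 15 measured genes of 20, with a median log2 ratio of −0.33. Aldh1a1, a retinaldehyde dehydrogenase, had 119 in 4 mM phosphate and 332 in 1 mM phosphate (log2 ratio −1.48), close to the ratio of Gsta4 at −1.33. Ephx2, the soluble epoxide hydrolase, was at −0.94 and Nqo1, a quinone reductase, at −0.85, both from dim signals with a technical SD of 0.42. Akr1b8, an aldo-keto reductase, was highest at 0.83, with 857 in 4 mM phosphate and 484 in 1 mM phosphate, and Cbr3, a carbonyl reductase, followed at 0.17. Within this list 5 genes were at least 1.5-fold lower and 1 was 1.5-fold higher. Of all measured genes, 55.9% had ratios below 0, 12.1% were 1.5-fold lower and 7.25% were 1.5-fold higher. The 1 of 15 that was higher is close to that last share.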
